A study of Homo sapiens with 8 samples.

Results

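The genes described here were 34 transcripts of the endoplasmic reticulum (ER) chaperone system and the unfolded protein response (UPR), chosen by symbol among the 26364 genes of the count file. All 34 were present and all 34 had enough counts to be tested, DERL3 through its SurvNESmut-GFP libraries only. They comprised 4 ER stress sensors, 2 transcription factors, 9 genes of the Hsp70 and Hsp90 chaperone system of the ER, 6 lectin chaperones and disulfide isomerases, 10 genes of ER-associated degradation (ERAD) and 3 genes of the translocon and of the COPII vesicle coat. Gene counts do not separate the spliced from the unspliced XBP1 mRNA.

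RNA was sequenced from stable clones of LN229, a human glioblastoma cell line. The clone Surv-GFP (D6) carries Survivin with a working nuclear export sequence (NES) fused to eGFP and holds it mostly in the cytoplasm, whereas the clone SurvNESmut-GFP (L2) carries the fusion with a mutated NES and holds it mostly in the nucleus. Both were made with a pcDNA3.1 plasmid and kept under G418, and each was either left untreated or exposed to 50 µM temozolomide (TMZ), a DNA-alkylating drug used against glioblastoma, for 48 h. Each of the 4 groups had 2 libraries, lettered a and b. Each construct is represented by 1 clone, so that a difference between the NES forms cannot be told apart from a difference between single clones. TMZ was dissolved in DMSO, and no source used here says whether the untreated cells received the solvent.

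Between 15826923 and 18861603 reads per library fell on genes, and the common biological coefficient of variation between replicates was 4.09%. Whether the letters are independent cultures or technical duplicates was not settled by the sources, so that all p-values measure only the spread between these libraries. The TMZ-exposed SurvNESmut-GFP pair stood apart: its chi-square per degree of freedom between letters was 5.74, against 2.2 to 2.66 in the other pairs, and its replicate a held 14.3% of reads outside genes, against 11.2% to 12.8% in all other libraries. In this pair 27 of 33 ER genes were lower in replicate a than in b, with a median difference of -0.10 on the log2 scale, whereas 11 to 13 of 33 were lower in a in the other groups. VIM, NES and CD44 were high in every library and SOX2 and OLIG2 were detected, whereas the astrocytic marker GFAP lay below 1 CPM (counts scaled by library size, a level that is compared here between libraries and not between genes). Of the markers of other cells, PTPRC, PECAM1, EPCAM and RBFOX3 were at or below 0.389 CPM, CD68 reached 21.4 CPM and MBP was at 0 in Surv-GFP and between 6.22 and 7.10 CPM in SurvNESmut-GFP; their part in the results was not tested. BIRC5, which encodes Survivin, averaged 1133 CPM untreated and 1984 CPM with TMZ in Surv-GFP, against 411 and 258 CPM in SurvNESmut-GFP, a sum of endogenous and any transgene reads. CDKN1A, the p53 target that encodes p21, rose with TMZ from a mean of 81.9 to 941 CPM in Surv-GFP and from 118 to 460 CPM in SurvNESmut-GFP.

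The UPR restores protein folding when unfolded proteins accumulate in the ER. It is signalled by 3 membrane sensors: IRE1 (gene ERN1), an endoribonuclease that splices XBP1 mRNA into the form encoding an active transcription factor, ATF6, which is cut in the Golgi to release a transcription factor, and PERK (gene EIF2AK3), a kinase that phosphorylates eIF2alpha, slows translation and favors the translation of ATF4. Spliced XBP1 is known mainly for genes of ERAD, translocation and J-domain co-chaperones, and ATF6 mainly for the abundant chaperones, although many of these genes respond to both. ATF4 can also be raised by other eIF2alpha kinases, without ER stress.

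Both factors are known to act through short promoter elements, and these are shown because genes that share them can be compared in their response. Promoters reaching from 250 bases before to 50 bases after the annotated start were taken from RefSeq (GRCh38.p14) for 30 of the 34 genes, and DERL1, DERL3, PDIA3 and SEC24D had no entry. The ER stress response element (ERSE), read as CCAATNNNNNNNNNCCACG on either strand, occurred in 27 of 35116 promoters (0.0769%) and in 7 of the 30 genes. The second form (ERSE-II), read as ATTGGNCCACG, occurred in 19 promoters (0.0541%) and in 3 of the 30 genes. The patterns share the letters CCACG, and neither contains the other. The windows below run 5′ to 3′ along the strand on which the motif reads, with 5 bases on each side, and the capitals mark the fixed letters of the motif. The first 8 hold ERSE and the last 4 hold ERSE-II.
HSPA5, chr9:125241386-125241414, minus strand: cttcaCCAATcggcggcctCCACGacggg
XBP1, chr22:28800598-28800626, minus strand: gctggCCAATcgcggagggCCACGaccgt
CANX, chr5:179698773-179698801, plus strand: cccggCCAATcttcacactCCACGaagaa
HSP90B1, chr12:103930211-103930239, plus strand: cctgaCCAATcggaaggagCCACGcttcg
HSP90B1, chr12:103930316-103930344, minus strand: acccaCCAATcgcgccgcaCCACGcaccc
CALR, chr19:12938379-12938407, minus strand: accgaCCAATgatggtcgaCCACGcgtgg
PDIA6, chr2:10812848-10812876, minus strand: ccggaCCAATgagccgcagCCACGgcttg
CRELD2, chr22:49918549-49918577, minus strand: atggcCCAATccgagttcgCCACGagagg
HERPUD1, chr16:56932020-56932040, plus strand: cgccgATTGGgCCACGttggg
HYOU1, chr11:119057269-119057289, plus strand: tactcATTGGaCCACGtccca
HYOU1, chr11:119057375-119057395, plus strand: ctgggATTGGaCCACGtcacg
SDF2L1, chr22:21642109-21642129, minus strand: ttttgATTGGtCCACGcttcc
All 12 windows lie upstream of the start, and the edge of the motif nearest the gene was 34 bases before the start in XBP1, 48 in HSPA5 and 207 in CALR, the smallest and the largest distance being those of XBP1 and CALR. The match of letters describes these windows and does not show that a factor was bound.

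With TMZ, most of these genes rose in the Surv-GFP clone and few did in the SurvNESmut-GFP clone. By edgeR's quasi-likelihood F test with a Benjamini-Hochberg adjusted p of 0.05 over 14201 genes, here termed called, 24 of the 34 were higher and 4 lower with TMZ in Surv-GFP, where 30.1% of all tested genes were higher and 28.9% lower. In SurvNESmut-GFP 4 were higher and 15 lower, with 18.6% and 19.1% of all genes in the same directions. The median log2 fold change of the 33 genes with counts in every group was 0.40 in the former clone and -0.12 in the latter, next to 0.00 over all genes in both. Without the exposed SurvNESmut-GFP replicate a, which stood apart, 5 genes were higher and 13 lower in that clone. The signed log2 fold change was higher in Surv-GFP than in SurvNESmut-GFP for 32 of the 33 genes, the exception being EDEM2. Among the 32, ATF6B was all but equal, at -0.072 in both clones. The share of all genes with this order was not computed. Their median difference, SurvNESmut-GFP minus Surv-GFP, was -0.001. The count of 32 gives direction and not size, since HSP90B1, EIF2AK3 and MANF moved farther from 0 in SurvNESmut-GFP. In bulk RNA a large change in part of the cells cannot be told apart from a small change in all of them.

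The difference between these effects was tested by itself, as the TMZ effect in SurvNESmut-GFP minus that in Surv-GFP. It was called negative for 26 of the 34 genes and positive for 0 (0 also with DESeq2 and at an unadjusted p of 0.05), while 20.2% of all genes were called negative and 16.6% positive. The median difference was -0.59 over the 33 genes. ATF6B, CRELD2, CALR, PDIA6, P4HB, EDEM2, OS9 and DERL3 did not pass this test, and the calls of ATF6, DERL2 and PDIA4 were lost with DESeq2. Together the 34 genes took 1.48% and 1.46% of all counted reads in untreated Surv-GFP and 1.75% and 1.70% with TMZ, whereas they took 1.32% and 1.33% in untreated SurvNESmut-GFP and 1.07% and 1.18% with TMZ.

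**Figure D1:**
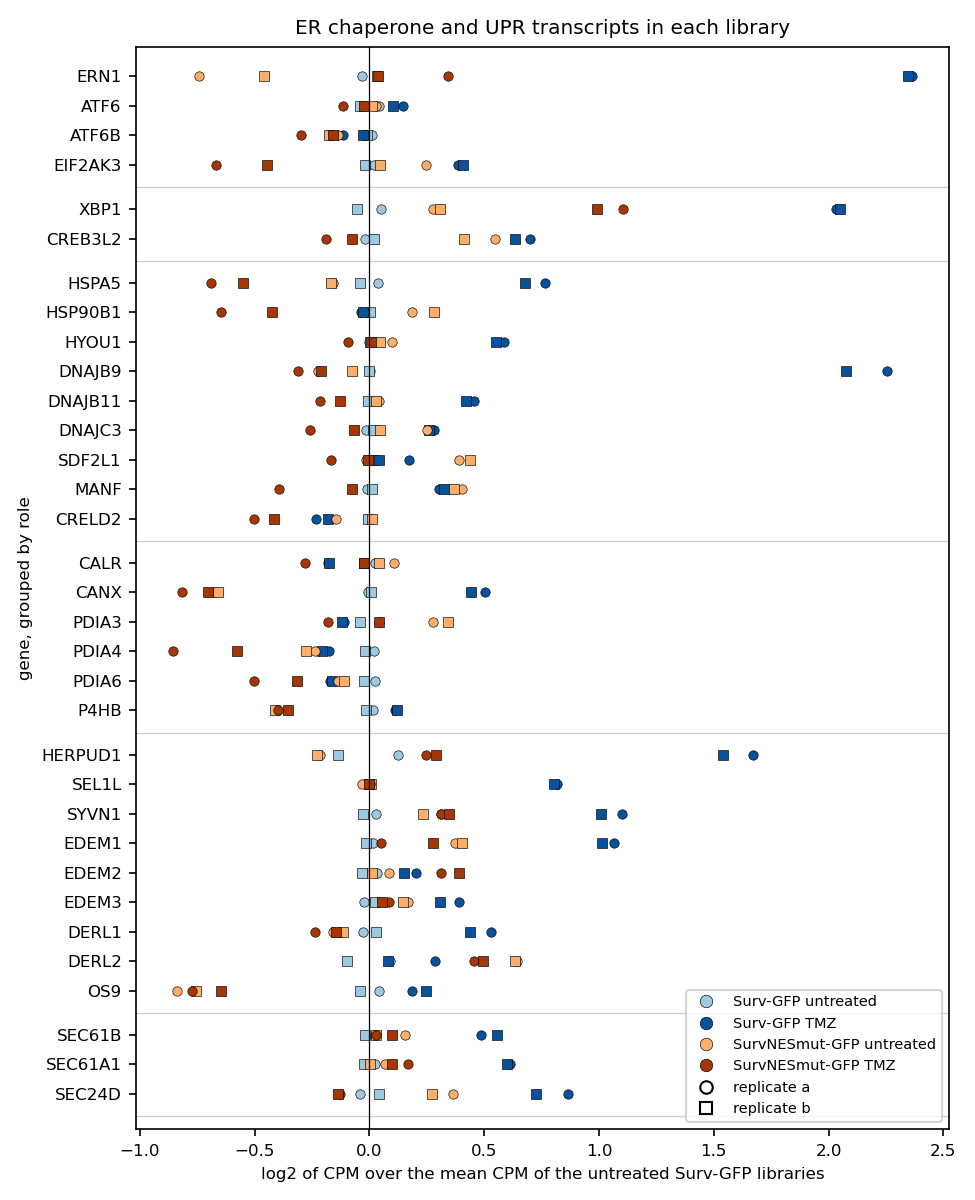
Level of 33 genes (rows, grouped by role) in each of the 8 libraries, as the log2 of CPM over the mean CPM of the untreated Surv-GFP libraries. The TMZ-exposed Surv-GFP libraries (dark blue) lie farthest to the right for ERN1, XBP1, DNAJB9 and HERPUD1, and the TMZ-exposed SurvNESmut-GFP libraries (dark brown) are the leftmost of the 4 groups within the rows of EIF2AK3, HSPA5 and HSP90B1. DERL3, with 0 counts in Surv-GFP, is not drawn.

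Of the sensors, ERN1 showed the largest rise of all 34 genes in Surv-GFP. It stood at 6.12 and 6.40 CPM untreated and at 32.2 and 31.8 CPM with TMZ in Surv-GFP, and at 3.74 and 4.56 CPM untreated and 7.95 and 6.43 CPM with TMZ in SurvNESmut-GFP. The groups did not overlap within either clone, and both TMZ-exposed SurvNESmut-GFP libraries lay just above the untreated Surv-GFP libraries. On the log2 scale ERN1 rose by 2.35 ± 0.11 (SE, 2 libraries per group) in Surv-GFP but by 0.80 ± 0.16 in SurvNESmut-GFP, with a difference of -1.56 ± 0.20 (edgeR adjusted p = 1.57e-05).

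EIF2AK3, which encodes PERK, moved in opposite directions. In Surv-GFP it rose from 29.8 and 29.03 CPM to 38.5 and 39.0 CPM, and in SurvNESmut-GFP it fell from 34.9 and 30.4 CPM to 18.5 and 21.6 CPM, again without overlap. The log2 fold changes were 0.40 ± 0.08 and -0.70 ± 0.09, both called. ATF6 ranged from 104 to 124 CPM over all 8 libraries; its log2 fold change of 0.13 ± 0.05 in Surv-GFP only just passed the test (edgeR adjusted p = 0.0472) and did not pass with DESeq2 or with other scalings. ATF6B, the paralog of ATF6, was not called in either clone, with -0.07 ± 0.06 in both.

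XBP1 mRNA, itself a target of ATF6 and of spliced XBP1, rose in both clones. It was counted at 74.1 and 69.0 CPM in untreated Surv-GFP and at 292.8 and 296.2 CPM with TMZ, and at 86.8 and 88.5 CPM in untreated SurvNESmut-GFP and at 153.8 and 142.1 CPM with TMZ. All 4 groups were separate, with the exposed SurvNESmut-GFP libraries between all untreated ones and the exposed Surv-GFP libraries. The rise was 2.04 ± 0.06 in Surv-GFP against 0.76 ± 0.06 in SurvNESmut-GFP, so that the effects differed by -1.29 ± 0.08 (edgeR adjusted p = 3.84e-09). CREB3L2, an ER-membrane transcription factor of the secretory pathway, rose from 168 and 172 CPM to 276 and 265 CPM in Surv-GFP and fell from 249 and 226 CPM to 149 and 161 CPM in SurvNESmut-GFP. Its difference between clones was -1.28 ± 0.08, close to that of XBP1, although XBP1 rose in both.

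**Figure D2:**
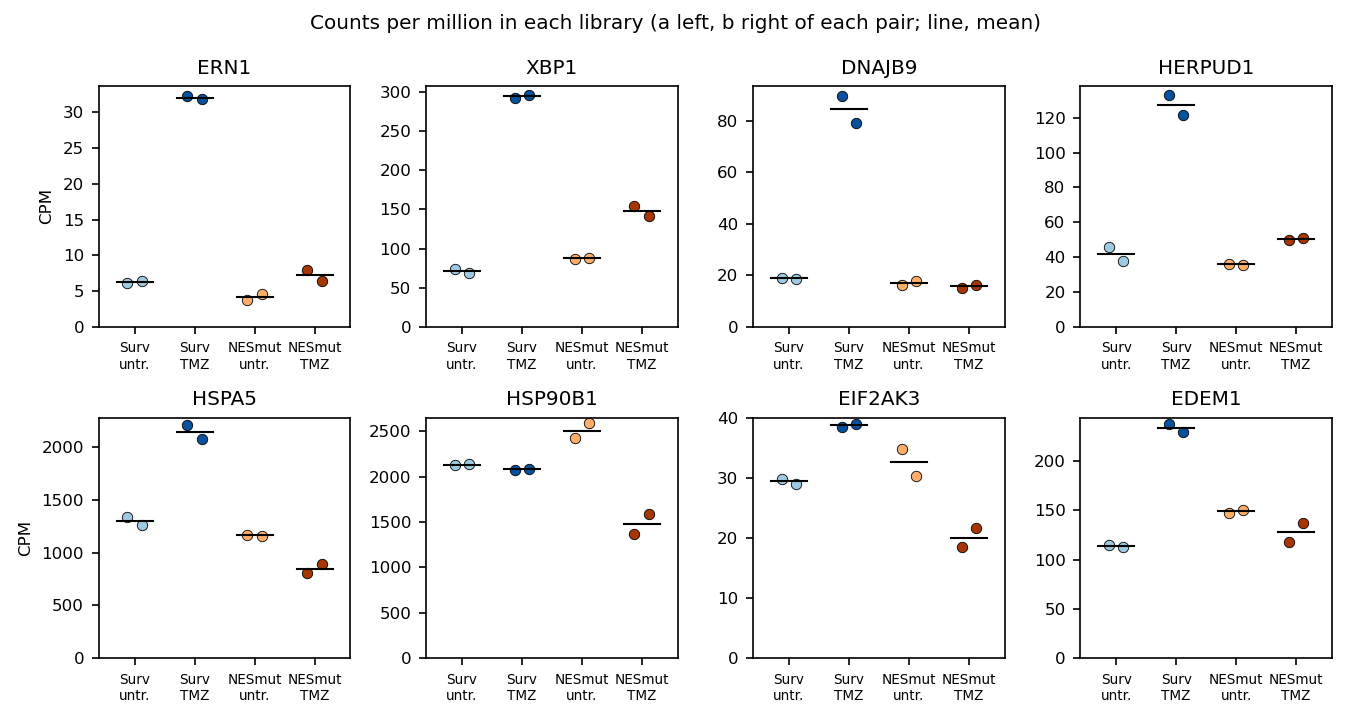
CPM of 8 genes in each library, with an axis from 0 per gene and the mean of the 2 libraries as a line. ERN1, XBP1 and HERPUD1 rose in both clones and more in Surv-GFP; DNAJB9 rose from 18.9 and 18.8 to 89.9 and 79.3 CPM in Surv-GFP and lay between 15.1 and 17.8 CPM in SurvNESmut-GFP; HSPA5, EIF2AK3 and EDEM1 rose in Surv-GFP and fell in SurvNESmut-GFP; HSP90B1 fell in SurvNESmut-GFP.

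Within the Hsp70 and Hsp90 system, 6 of 9 genes were higher with TMZ in Surv-GFP and 1 lower, against 0 higher and 7 lower in SurvNESmut-GFP. The shares of all genes were 30.1% higher and 28.9% lower in Surv-GFP and 18.6% and 19.1% in SurvNESmut-GFP. HSPA5, which encodes BiP, the Hsp70 of the ER and the most used reporter of ER stress, was at 1338 and 1266 CPM in untreated Surv-GFP and at 2209 and 2080 CPM with TMZ. In SurvNESmut-GFP it was at 1167 and 1159 CPM untreated and at 807 and 889 CPM with TMZ, the lowest level of the 4 groups. The changes were 0.72 ± 0.05 and -0.46 ± 0.05 on the log2 scale, a difference of -1.17 ± 0.07 (edgeR adjusted p = 5.7e-09). HSP90B1, the Hsp90 of the ER, did not follow HSPA5 in Surv-GFP, where 2130 and 2134 CPM untreated stood next to 2078 and 2088 CPM with TMZ (-0.03 ± 0.06, 95% interval -0.16 to 0.09). In SurvNESmut-GFP it fell from 2422 and 2589 CPM to 1363 and 1587 CPM, a log2 fold change of -0.76 ± 0.06 and the largest called fall among the 34 genes in that clone.

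DNAJB9, a J-domain co-chaperone of BiP that represses IRE1, showed the largest difference between the clones, -2.28 ± 0.13 (edgeR adjusted p = 1.93e-09). It rose by 2.17 ± 0.08 on the log2 scale in Surv-GFP, and in SurvNESmut-GFP its untreated and exposed libraries overlapped (-0.11 ± 0.10, 95% interval -0.33 to 0.10). A change of DNAJB9 was thus not detectable in SurvNESmut-GFP, where ERN1 and XBP1 mRNA rose less than in Surv-GFP. HYOU1, the nucleotide exchange factor of BiP, rose by 0.57 ± 0.05 in Surv-GFP and was not called in SurvNESmut-GFP, at -0.12 ± 0.05. The co-chaperones DNAJB11 and DNAJC3 rose by 0.44 ± 0.05 and 0.27 ± 0.07 in Surv-GFP and changed by -0.21 ± 0.05 and -0.32 ± 0.07 in SurvNESmut-GFP, all called. The call of DNAJC3 in SurvNESmut-GFP was lost without the untreated replicate a.

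Among the small luminal proteins of this group, MANF, a secreted ER stress protein, rose by 0.31 ± 0.07 in Surv-GFP and changed by -0.62 ± 0.07 in SurvNESmut-GFP. SDF2L1 was not called in Surv-GFP, at 0.11 ± 0.06, and was lower by -0.50 ± 0.06 in SurvNESmut-GFP. CRELD2, which is a well-known ER stress gene, was lower in both clones, by -0.21 ± 0.06 and -0.39 ± 0.06, and it was the single gene of this group whose effects were not called different.

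The lectin chaperones and disulfide isomerases were the only role with more genes lower than higher in Surv-GFP, with 2 of 6 higher and 3 lower. Among all genes 30.1% were higher and 28.9% lower, so that the 33.3% higher in this role was near the share of all genes. CANX, the membrane-bound lectin chaperone, rose from 1641 and 1653 CPM to 2335 and 2239 CPM in Surv-GFP, whereas its soluble relative CALR went from 1261 and 1222 CPM to 1094 and 1098 CPM. In SurvNESmut-GFP, CANX lay at 1032 and 1042 CPM untreated and at 936 and 1010 CPM with TMZ, which was not called (-0.09 ± 0.05), and CALR at 1337 and 1276 CPM untreated and at 1021 and 1219 CPM with TMZ (-0.22 ± 0.06, called). The difference between the clones was -0.57 ± 0.07 for CANX and -0.04 ± 0.09 for CALR, with a 95% interval from -0.23 to 0.15 for the latter.

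PDIA4 fell from 884 and 862 CPM to 773 and 756 CPM in Surv-GFP and from 740 and 720 CPM to 483 and 584 CPM in SurvNESmut-GFP. PDIA6 changed by -0.17 ± 0.05 and -0.28 ± 0.05, and PDIA3, the isomerase that works with both lectin chaperones, by -0.12 ± 0.06, which was not called, and -0.38 ± 0.06. P4HB, which encodes the major disulfide isomerase and a subunit of prolyl 4-hydroxylase, rose by 0.12 ± 0.04 in Surv-GFP, a call lost with DESeq2, and changed by 0.03 ± 0.04 in SurvNESmut-GFP. The 4 genes that were lower in Surv-GFP (CRELD2, CALR, PDIA4 and PDIA6) were also lower in SurvNESmut-GFP. These 4 calls rest on few libraries: none of them held in Surv-GFP without the TMZ-exposed replicate a, 1 held without the untreated replicate a and 2 without the untreated replicate b.

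ERAD removes misfolded proteins through a membrane ubiquitin ligase, and 8 of its 10 genes were higher with TMZ in Surv-GFP and 0 lower, against 2 higher and 1 lower in SurvNESmut-GFP. Next to these stood 30.1% and 28.9% of all genes in Surv-GFP and 18.6% and 19.1% in SurvNESmut-GFP. The 20% of ERAD genes higher in SurvNESmut-GFP was near that share. HERPUD1, a scaffold of the ligase complex, rose from 45.6 and 38.0 CPM to 133.3 and 121.6 CPM in Surv-GFP and from 36.0 and 35.7 CPM to 49.6 and 51.1 CPM in SurvNESmut-GFP. It thus rose in both clones, by 1.61 ± 0.07 and 0.49 ± 0.08. The ligase SYVN1 and its adaptor SEL1L rose by 1.06 ± 0.05 and 0.81 ± 0.05 in Surv-GFP, and in SurvNESmut-GFP their exposed and untreated libraries overlapped (0.06 ± 0.05 and 0.01 ± 0.05).

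The EDEM proteins trim mannose from misfolded glycoproteins, and their 3 genes differed from each other. EDEM1 rose from 115 and 113 CPM to 238 and 230 CPM in Surv-GFP. In SurvNESmut-GFP it fell from 147 and 151 CPM to 118 and 138 CPM. That call was lost without the exposed replicate a or without the untreated replicate b. EDEM3 rose by 0.35 ± 0.05 in Surv-GFP and was not called in SurvNESmut-GFP, at -0.09 ± 0.05. EDEM2 was higher in both clones, by 0.18 ± 0.05 (not called with DESeq2) and 0.30 ± 0.05, with a difference of 0.13 (95% interval -0.04 to 0.29).

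Of the derlins, membrane proteins of the retrotranslocation machinery, DERL1 rose by 0.48 ± 0.06 in Surv-GFP and changed by -0.05 ± 0.06 in SurvNESmut-GFP, and DERL2 was called in neither clone (0.19 ± 0.09 and -0.16 ± 0.08). DERL3 had 0 counts in all 4 Surv-GFP libraries, 27 and 26 counts in untreated SurvNESmut-GFP and 14 and 12 counts with TMZ. Against a floor of 3 counts per library, it was at least 8.86-fold higher in SurvNESmut-GFP without TMZ and at least 4.73-fold higher with TMZ. In the annotation 77.0% of its exonic bases are shared with SMARCB1 on the other strand, and reads on shared bases could not be assigned here. OS9, a lectin that delivers glycoproteins to the ligase, rose by 0.22 ± 0.05 in Surv-GFP, with 0.09 ± 0.06 in SurvNESmut-GFP, which was not called.

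All 3 genes of protein entry and exit rose in Surv-GFP, where 30.1% of all genes were higher. The translocon subunits SEC61B and SEC61A1 rose by 0.52 ± 0.06 and 0.61 ± 0.05 and were not called in SurvNESmut-GFP (-0.03 ± 0.06 and 0.10 ± 0.05). SEC24D, the cargo adaptor of the COPII coat, rose from 61.3 and 64.8 CPM to 114.7 and 104.3 CPM in Surv-GFP and fell from 81.1 and 76.2 CPM to 57.7 and 57.3 CPM in SurvNESmut-GFP.

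**Figure D3:**
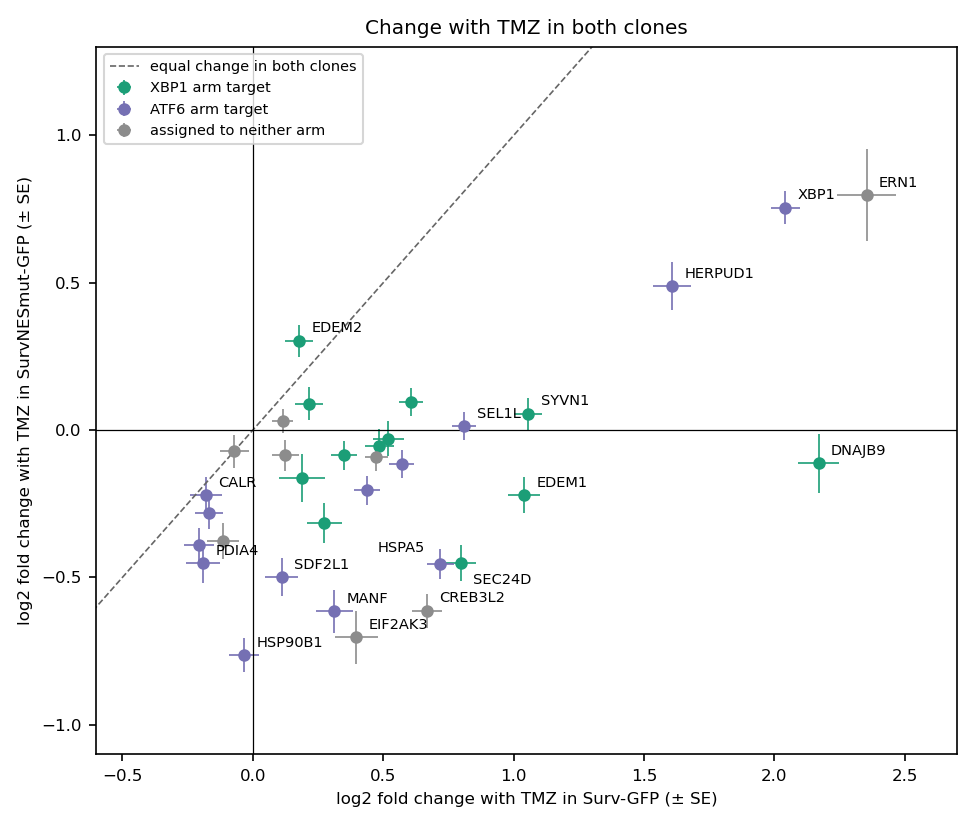
Log2 fold change with TMZ in Surv-GFP (horizontal) against that in SurvNESmut-GFP (vertical) for 33 genes, with SE as bars and colors for the assigned arm. Apart from EDEM2, the points lie on or below the dashed line of equal change, and ERN1, XBP1, HERPUD1 and EDEM2 are the 4 genes called higher in both clones.

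By arm, 13 genes were assigned to XBP1 and 13 to ATF6 from general knowledge. The XBP1 arm held DNAJB9, DNAJC3, EDEM1, EDEM2, EDEM3, SEC61B, SEC61A1, SEC24D, DERL1, DERL2, DERL3, SYVN1 and OS9. The ATF6 arm held HSPA5, HSP90B1, CALR, PDIA4, PDIA6, HYOU1, DNAJB11, CRELD2, MANF, SDF2L1, the ERAD genes HERPUD1 and SEL1L, and XBP1 itself. Of the XBP1 arm 11 were higher and 0 lower with TMZ in Surv-GFP, with a median log2 fold change of 0.50 over 12 genes, and 1 was higher and 3 lower in SurvNESmut-GFP, with a median of -0.07. Of the ATF6 arm 7 were higher and 4 lower in Surv-GFP, with a median of 0.31, and 2 were higher and 9 lower in SurvNESmut-GFP, with a median of -0.28. The 2 higher ones were HERPUD1 and XBP1. In both arms 10 of 13 genes were called negative in the difference between the clones, next to 20.2% of all genes. With TMZ 30.1% of all genes were higher and 28.9% lower in Surv-GFP, and 18.6% and 19.1% in SurvNESmut-GFP. Near these were the XBP1-arm share lower in SurvNESmut-GFP (23.1%) and the ATF6-arm shares lower in Surv-GFP (30.8%) and higher in SurvNESmut-GFP (15.4%). Whether the arms differ from each other was not tested.

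The genes that share an ERSE did not move as a block. Of the 7 genes with ERSE, 3 were higher with TMZ in Surv-GFP (XBP1, HSPA5 and CANX), 3 were lower (CALR, PDIA6 and CRELD2) and HSP90B1, which holds the motif at 2 places, was not called. In SurvNESmut-GFP XBP1 alone of the 7 was higher, 5 were lower and CANX was not called. Of the 3 genes with ERSE-II, HERPUD1 and HYOU1 were higher in Surv-GFP and SDF2L1 was not called, while in SurvNESmut-GFP HERPUD1 was higher and SDF2L1 lower. Among all genes 30.1% were higher and 28.9% lower in Surv-GFP, and 18.6% and 19.1% in SurvNESmut-GFP. With 7 and 3 genes, the motif counts are a description.

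Across both clones, 4 genes were called higher in each (ERN1, XBP1, HERPUD1 and EDEM2), 4 lower in each, and 8 higher in Surv-GFP and lower in SurvNESmut-GFP (EIF2AK3, CREB3L2, HSPA5, DNAJB11, DNAJC3, MANF, EDEM1 and SEC24D). None of the listed genes was called lower in Surv-GFP and higher in SurvNESmut-GFP. The shares of all tested genes in these combinations were not computed. Whether the counts differ from those shares is therefore not known. The effects of the clones, which share no libraries, had a Pearson r of 0.61 and a Spearman rho of 0.41 across the 33 genes, next to r = 0.48 across all genes tested. Without XBP1, ERN1, DNAJB9 and HERPUD1, r was 0.17. Genes are not independent replicates, and these values are given as a description.

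Without TMZ the clones differed in both directions. Of the 34 genes 12 were higher and 9 lower in SurvNESmut-GFP than in Surv-GFP, with 34.7% and 29.4% of all genes in these directions, and the median log2 difference was 0.05, next to 0.03 over all genes. Both counts (35.3% higher and 26.5% lower) were thus near the shares of all genes. The 12 include DERL3, which passed the count filter only through SurvNESmut-GFP, so that its call is no support. OS9 and CANX were the most reduced in untreated SurvNESmut-GFP, by -0.80 ± 0.06 and -0.67 ± 0.05, followed by ERN1 at -0.60 ± 0.16 and P4HB at -0.41 ± 0.04. DERL2, at 36.9 and 36.8 CPM against 25.2 and 22.1 CPM, was the most raised apart from DERL3, by 0.64 ± 0.08, and CREB3L2, SDF2L1, EDEM1 and MANF were raised by 0.48, 0.41, 0.39 and 0.39. The direction of the clone difference turned for part of the genes. CREB3L2, MANF, EDEM1 and SEC24D were among those called higher in SurvNESmut-GFP without TMZ and lower with it. All 9 genes lower without TMZ were also lower with it, and DERL2 was higher in both conditions.

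With TMZ, 29 of the 34 genes were lower in SurvNESmut-GFP than in Surv-GFP and 3 higher (EDEM2, DERL2 and DERL3), against 34.7% of all genes lower and 34.5% higher, and the median difference was -0.54 over 33 genes. Here too DERL3 entered the test only through its SurvNESmut-GFP counts, so that its call is no support. CALR, at 0.03 ± 0.06, and PDIA3, at 0.05 ± 0.06, were not called. The largest difference was that of DNAJB9, -2.43 ± 0.08, followed by ERN1 at -2.15 ± 0.11, HERPUD1 at -1.34 ± 0.07 and HSPA5 at -1.34 ± 0.05. These comparisons use the same libraries as the TMZ effects above and are not separate evidence.

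Other parts of the pathway were described by lists of other genes. Of 10 PERK-ATF4 genes, 9 were higher with TMZ in Surv-GFP and 10 in SurvNESmut-GFP, with 0 lower in each, next to 30.1% and 18.6% of all genes higher. The medians of 3.37 and 1.91 on the log2 scale exceeded those of the XBP1 and ATF6 arms. ATF4 itself rose by 0.85 ± 0.05 and 0.52 ± 0.05, and VLDLR was not called in Surv-GFP, at 0.06 ± 0.10. NUPR1, called higher in both clones, lay near the floor, with means of 0.03 and 0.56 CPM in Surv-GFP and 0.36 and 2.72 CPM in SurvNESmut-GFP. Counted among the 9 and the 10, it passed the count filter only through TMZ-exposed libraries, so that its calls are no support. TRIB3, a pseudokinase induced by ATF4 and CHOP, rose by 4.19 ± 0.06 in Surv-GFP but by 1.87 ± 0.06 in SurvNESmut-GFP, and PPP1R15A, which directs the dephosphorylation of eIF2alpha, by 3.52 ± 0.06 and 0.79 ± 0.06. CHAC1, a glutathione-degrading enzyme, rose by 4.25 ± 0.12 and 3.57 ± 0.10, and SESN2 by 2.82 ± 0.06 and 2.03 ± 0.06. The difference was called negative for 8 of the 10 and positive for 1, VLDLR (1.11 ± 0.15), next to 20.2% and 16.6% of all genes.

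Further genes of ER entry, folding and degradation were counted in the same way, against the 30.1% higher and 28.9% lower of all tested genes in Surv-GFP and the 18.6% and 19.1% in SurvNESmut-GFP. Of 16 further translocation and signal peptide genes, 13 were higher and 0 lower with TMZ in Surv-GFP and 2 higher and 8 lower in SurvNESmut-GFP, with medians of 0.32 and -0.14. SERP1, which stabilizes membrane proteins during ER stress, rose by 1.16 ± 0.05 in Surv-GFP (0.02 ± 0.05 in SurvNESmut-GFP, not called), and the signal peptidase subunit SEC11C rose by 1.304 ± 0.07 and 0.28 ± 0.08. Of 15 further folding and oxidation genes, 11 were higher and 2 lower in Surv-GFP and 4 were higher and 4 lower in SurvNESmut-GFP, and ERP29, a luminal ER protein, had a called positive difference between the clones (0.29 ± 0.07). Of 17 further ERAD genes tested, 11 were higher and 4 lower against 2 higher and 6 lower. VIMP, which links the derlins to the segregase VCP, rose by 1.04 ± 0.06 in Surv-GFP and changed by -0.24 ± 0.06 in SurvNESmut-GFP, whereas VCP itself changed by -0.43 ± 0.05 and -0.46 ± 0.04, lower in both.

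The next lists are read against the same shares of all genes, 30.1% higher and 28.9% lower in Surv-GFP and 18.6% and 19.1% in SurvNESmut-GFP. Of 16 KDEL receptors and COPII genes, 8 were higher and 4 lower in Surv-GFP, and 2 were higher and 10 lower in SurvNESmut-GFP. The COPII subunit SEC23B rose in both clones, by 0.85 ± 0.05 and 0.19 ± 0.05, and the cargo receptor SURF4 rose by 0.18 ± 0.05 in Surv-GFP, with -0.46 ± 0.05 in SurvNESmut-GFP. Of 9 oligosaccharyltransferase genes 6 were higher and 2 lower against 2 higher and 3 lower, and of 9 membrane-bound factors and ATF6 proteases tested 4 were higher and 2 lower against 0 higher and 1 lower.

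Of 5 transcripts known to be cleaved by IRE1 in regulated decay, 1 was higher and 1 lower in Surv-GFP and 0 were higher and 1 lower in SurvNESmut-GFP. The shares of all genes were 30.1% and 28.9% in Surv-GFP and 18.6% and 19.1% in SurvNESmut-GFP, so that no count of this list exceeded them clearly. BLOC1S1, the best known of them, was at -0.22 ± 0.10 and -0.33 ± 0.13 in the same order and was not called in either clone. PDGFRB was lower in both, by -0.82 ± 0.15 and -1.03 ± 0.15. For the 5 genes of this list the edgeR adjusted p of the difference between the clones ranged from 0.503 to 0.811.

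Chaperones of other compartments were listed for comparison, and whether their changes differ from those of the ER genes was not tested. Their counts stand next to 30.1% higher and 28.9% lower of all genes in Surv-GFP, and 18.6% and 19.1% in SurvNESmut-GFP. Of 10 cytosolic heat shock genes, 0 were higher and 8 lower with TMZ in each clone, with medians of -0.36 and -0.25. HSPA8, the constitutive Hsp70 of the cytosol, changed by -0.99 ± 0.06 in Surv-GFP and -0.17 ± 0.06 in SurvNESmut-GFP. Of 7 mitochondrial chaperones and proteases, 3 were higher and 1 lower against 4 higher and 1 lower, and HSPA9, the mitochondrial Hsp70, rose by 1.24 ± 0.05 and 0.49 ± 0.05.

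**Figure D4:**
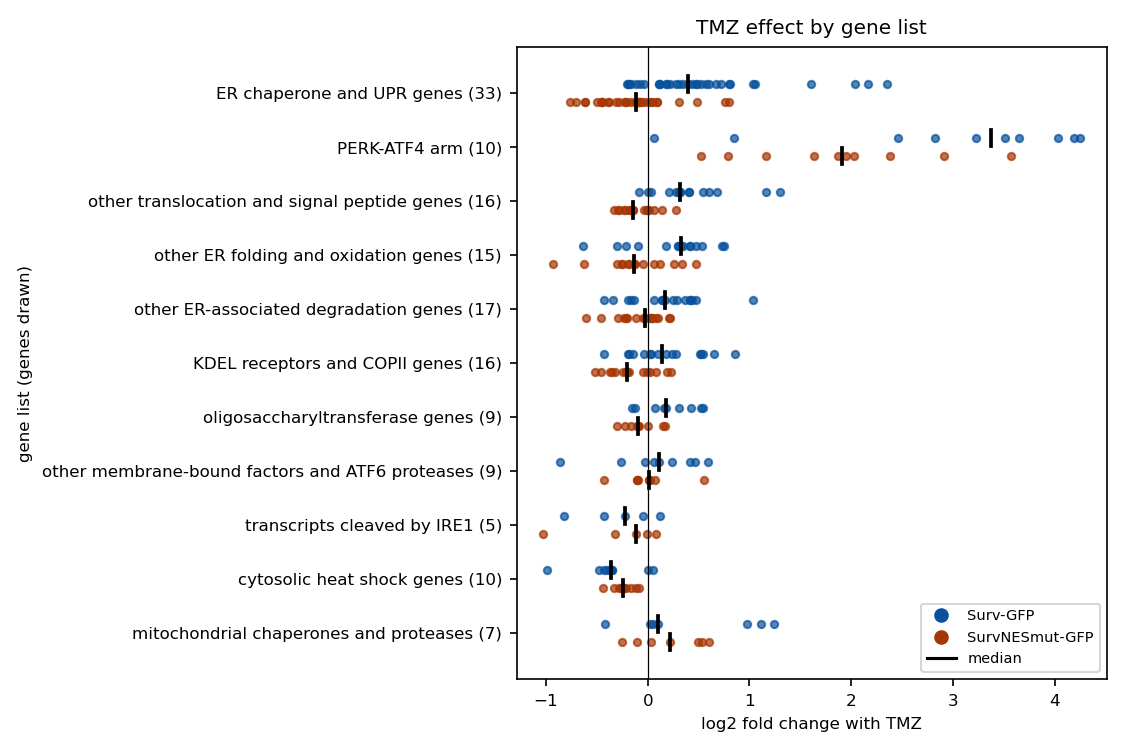
Log2 fold change with TMZ of the tested genes of each list (points) in Surv-GFP (blue) and SurvNESmut-GFP (brown), with the median as a black bar. The median of the PERK-ATF4 genes lies farthest to the right in both clones (3.37 and 1.91), although single genes of that list do not, and the 33 ER chaperone and UPR genes have medians of 0.40 and -0.12.

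Some of these counts can include reads of other genes. In the GENCODE 29 annotation, 25.2% of the exonic bases of PDIA6 are shared with ATP6V1C2 and 14.8% of those of PDIA3 with ELL3, in both cases on the other strand, and the sources do not state whether the counting used strand. Of the pseudogenes named after these genes, PDIA3P1 had 100 to 176 counts and HSP90B2P 16 to 28 counts per library. SYVN1 shares 7.24% of its exonic bases with FAU on the same strand, which counting by strand would not separate.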

How the data were processed

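The authors made Illumina RNA libraries of both LN229 clones, untreated or TMZ-exposed. Samples were grouped by their titles. Per gene, the file of raw read counts deposited by the authors holds whole numbers that were not normalized. The submitters' processing notes name STAR 2.5.0b, Cufflinks 2.2.1 and edgeR without roles. No source used here states the counting program, annotation, build or strandedness. The 5 comparison tables deposited by the authors hold fold changes, mean levels, F scores, p-values and FDR of their own tests and were not used. Reads outside genes (11.2% to 14.3%) and ambiguous reads (1.19% to 1.28%) were left out.

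The statistics were computed with edgeR 4.0.16 in R 4.3.3 (quasi-likelihood F test, TMM, filter on low counts by group with a minimum count of 10, 4 group means over 8 libraries), Benjamini-Hochberg adjusted over all 14201 tested genes, and with DESeq2 1.42.0 as an alternative. CPM use TMM-scaled library sizes, and ± gives the SE of the fit. Each 0 count allows up to 3 counts, and such floors and the 95% intervals do not cover differences between clones. The fits were tested on simulated data. The 34 genes, the role, arm and other lists, and the rule for named genes (all 34, and of each other list at most 2 genes per clone with the smallest p past the threshold, with BIRC5 and CDKN1A) were chosen with earlier results of these data known. BLOC1S1, ATF4, VLDLR and NUPR1, outside this rule, were chosen after their values were seen. Alternatives were other scalings, filters, tools, a replicate block, only the compared libraries, and leaving out each library. Promoters were searched with Python 3 and pandas, and exons compared with GENCODE 29.

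The letters were checked for pairing: over 8947 genes, deviations of same-lettered libraries correlated between -0.23 and 0.15 across the 6 pairs of groups, so that the letters were not taken to pair samples.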

Additional observations from a re-analysis of the deposited data

Results flagged for a closer look

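The TMZ effect differed between the clones, by the test of the difference itself (SurvNESmut-GFP minus Surv-GFP, log2 scale, edgeR's quasi-likelihood F test), for 26 of the 34 genes. The difference was largest for DNAJB9 (-2.28) and ERN1 (-1.56), followed by XBP1 (-1.29), CREB3L2 (-1.28), EDEM1 (-1.26), SEC24D (-1.25), HSPA5 (-1.17), HERPUD1 (-1.12), EIF2AK3 (-1.1) and SYVN1 (-1). It lay between -0.93 and -0.51 for MANF (-0.93), SEL1L (-0.80), HSP90B1 (-0.73), HYOU1 (-0.69), DNAJB11 (-0.64), SDF2L1 (-0.61), DNAJC3 (-0.59), CANX (-0.57), SEC61B (-0.55), DERL1 (-0.54) and SEC61A1 (-0.51). The smallest differences were those of EDEM3 (-0.44), DERL2 (-0.35), PDIA4 (-0.26), PDIA3 (-0.26) and ATF6 (-0.21), and DERL2, PDIA4, PDIA3 and ATF6 lost the call under at least 1 alternative. Of these 26, HSP90B1, SDF2L1, PDIA3, PDIA4 and DERL2 had no called rise in Surv-GFP. Since each construct is 1 clone, the NES form and the clone cannot be told apart.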

How the results depend on the processing

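Without single libraries, the number of genes lower with TMZ in Surv-GFP ranged from 0 to 5 (4 with all libraries), that of genes lower in untreated SurvNESmut-GFP than in Surv-GFP from 5 to 10 (9 with all), and that of genes higher in SurvNESmut-GFP with TMZ from 1 to 5 (3 with all), the lowest without the exposed Surv-GFP replicate b and the highest without the exposed SurvNESmut-GFP replicate a. The value of 5 for the untreated clones came without the untreated Surv-GFP replicate a or either untreated SurvNESmut-GFP library. Genes higher with TMZ in Surv-GFP numbered 21 to 25, genes lower in SurvNESmut-GFP 13 to 17 (13 without the exposed replicate a or another single library), and genes with a negative difference 22 to 30. With the other alternatives these numbers were 21 to 24, 15 to 16 and 22 to 26. With the replicate block 23 genes were higher and 4 lower in Surv-GFP, 4 higher and 15 lower in SurvNESmut-GFP, and 26 negative in the difference; the calls of ATF6 with TMZ in Surv-GFP and of DERL1 between the untreated clones were lost.

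Leaving aside genes called neither in the main fit nor under the alternative, whose signs were not compared, turned signs were recorded in 2 places. The median clone difference without TMZ was -0.009 with library size alone in place of TMM, and CALR in the clone difference with TMZ was -0.138 (edgeR adjusted p = 0.012) without the exposed SurvNESmut-GFP replicate b and 0.115 without replicate a. Of all single-gene values under alternatives, 2630 kept their side of the threshold and, where called, their direction. A further 106 lost the call and 35 gained one. With TMZ in Surv-GFP, 8 genes lost their call under at least 1 alternative (ATF6, P4HB, EDEM2, OS9, CRELD2, CALR, PDIA4 and PDIA6). In SurvNESmut-GFP the calls of CALR, DNAJC3 and EDEM1 were lost without single libraries. The causes were not tested. With 2 libraries per group, depth and replication limit small changes, and DERL3 rests on at most 27 counts.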
